A study of Mus musculus with 16 samples.

Results

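Expression of 41 lysosomal genes was examined in mouse lung myeloid cells taken from tumour and from the lung tissue beside it. The genes were listed by name, by a choice made with earlier results of these data known, and cover lysosomal hydrolases with their partners, membrane proteins, cation channels, subunits of the proton pump and transcription factors of the MiT family. All 41 were measured, among 19938 named genes. The cells were sorted by flow cytometry for the surface proteins CD11b and CD11c together with MHC class II, and are called CD11b+ dendritic cells in the labels. There were 8 arrays labelled tumoral, from Lewis lung carcinoma growing in the lung, and 8 labelled peritumoral, from lung tissue of tumour-bearing animals. All hosts were C57BL/6 mice that received Lewis lung carcinoma cells, a syngeneic lung tumour line, through the airways, so neither group came from tumour-free animals. The labels name no animal, pool, age or batch, and p-values therefore measure the spread between these arrays, which may in part be technical.

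Lysosomes are acidic compartments that break down protein, glycan and lipid delivered by phagocytosis, endocytosis and autophagy. The vacuolar ATPase pumps protons into them, with a soluble V1 part that splits ATP and a membrane V0 part that carries the protons, and most lysosomal hydrolases need the acid it makes. Phagocytes vary in how far they acidify and how much protease they hold. Dendritic cells are known for milder proteolysis than macrophages, which spares peptides for presentation on MHC class II. The transcription factors TFEB, TFE3 and MITF bind a short palindrome in promoters of many lysosomal genes.

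Values are the authors' deposited expression values, read as log2, on which a step of 1 is a factor of 2. Differences are tumoral minus peritumoral. A gene's deviation in an array is its log2 value minus its mean over the 16 arrays. Levels of different genes are not compared, because each probe set has its own brightness.

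The sorted cells carried transcripts of their sorting markers in every array, but dendritic cell genes and genes of other cell types varied widely between arrays of the same label. Itgax, which encodes CD11c, lay between 11.51 and 11.72 in tumoral and between 11.07 and 11.79 in peritumoral arrays. H2-Ab1, an MHC class II gene, lay between 13.10 and 13.38 in tumoral and between 13.06 and 13.38 in peritumoral arrays. The third marker varied more, the CD11b gene Itgam. It lay between 11.00 and 11.62 in tumoral and between 10.18 and 11.80 in peritumoral arrays, and its 5 highest arrays were tumoral 1, 4 and 7 and peritumoral 3 and 6. Peritumoral 4 stood apart, with a mean deviation of -0.56 for the 3 sorting markers, 3.57 for 9 endothelial markers and 2.18 for 8 lung epithelial markers. Peritumoral 7 had an endothelial deviation of 1.30 and an epithelial one of 0.56. Peritumoral 5 had a neutrophil deviation of 1.32 and an epithelial one of 0.41. The endothelial deviation of every tumoral array lay between -0.53 and -0.34, and the fibroblast deviation between -0.62 and -0.14. In peritumoral arrays the fibroblast deviation ran from -0.25 to 1.88. The 5 arrays at places 9, 12, 15, 3 and 6 of the deposited table, which are tumoral 1, 4 and 7 and peritumoral 3 and 6, were the 5 lowest for 6 of 10 conventional dendritic cell genes. This order was found in 3.6% of all genes. For Flt3, the receptor for the growth factor of dendritic cells, those arrays lay between 8.73 and 9.25, and Zbtb46, Irf4 and Cd209a were among the 6. In 12 of the 16 arrays the array most alike over all genes stood a multiple of 3 places away in the deposited table, and in 13 it carried the same label. The labels do not say what a place in the table stands for, so no condition is attached to it here, and the label groups are used for every test.

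Most lysosomal genes moved together across the arrays, and they did so within both labels rather than between them. In tumoral 1 and tumoral 4 all 41 members were above their own means. In tumoral 7 there were 39, in tumoral 3 and peritumoral 6 there were 37 each, in peritumoral 5 there were 34 and in peritumoral 3 there were 33. In tumoral 2 only 1 member was above its mean, in tumoral 8 there were 3, and in peritumoral 1 and 4 there were 4 each. Over all genes the share above their own mean in any array ran from 39.9% to 61.0%. The mean deviation of the 41 genes was 0.37, -0.32, 0.13, 0.42, -0.23, -0.13, 0.30 and -0.29 in tumoral 1 to 8. In peritumoral 1 to 8 it was -0.28, -0.04, 0.23, -0.32, 0.13, 0.33, -0.29 and -0.01. Both labels thus spanned nearly the whole range, from -0.32 to 0.42 in tumoral and from -0.32 to 0.33 in peritumoral arrays.

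**Figure D1:**
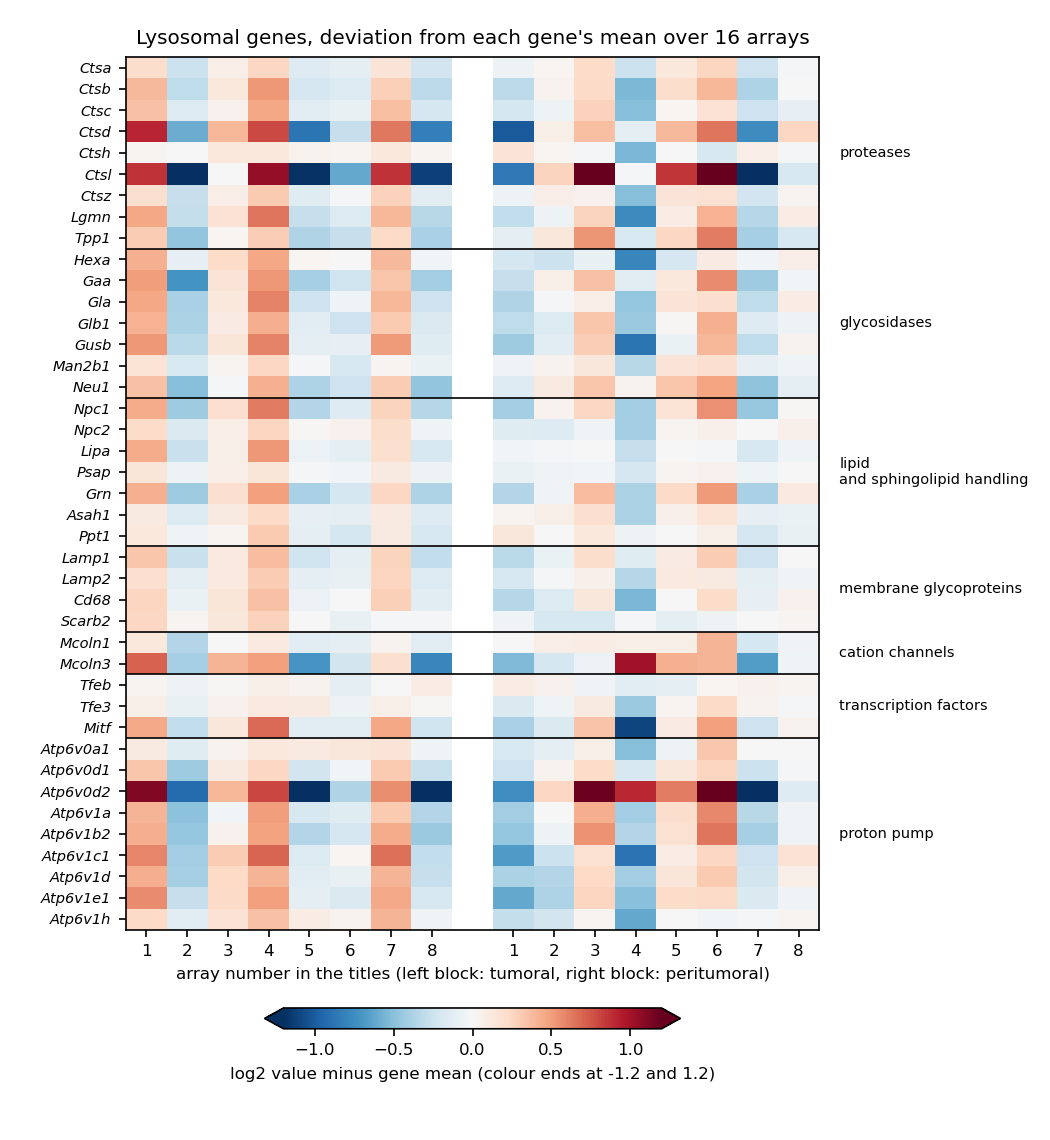
Heat map of the 41 lysosomal genes (rows, by role) in the 16 arrays (columns, tumoral 1 to 8 left of peritumoral 1 to 8). Colour is the log2 value minus the gene's mean over all arrays. Columns tumoral 1, 4 and 7 and peritumoral 3 and 6 are red for most genes, and peritumoral 4 is blue for most genes but not for Mcoln3 or Atp6v0d2.

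For 16 of the 41 members the arrays tumoral 1, 4 and 7 and peritumoral 3 and 6 were the 5 highest, an order found in 8.37% of all genes. The 16 were the proteases Ctsa, Ctsb, Ctsc, Ctsl and Lgmn, the glycosidases Gaa, Glb1 and Gusb, Npc1, Grn, Lamp1, Mitf and the pump subunits Atp6v0d1, Atp6v1a, Atp6v1b2 and Atp6v1d. No member had those arrays as its 5 lowest. In 9 members the arrays fell into a complete order, with these 5 highest, the 5 at places 11, 14, 2, 5 and 8 next and the 6 at places 10, 13, 16, 1, 4 and 7 lowest, against 0.933% of all genes. The 9 were Ctsb, Ctsc, Lgmn, Npc1, Grn, Lamp1, Atp6v0d1, Atp6v1a and Atp6v1b2. Without peritumoral 4 the complete order held for 11 members, with Ctsl and Gaa added, against 1.23% of all genes. These orders are descriptions, were looked for after the data were seen, and carry no test. The shares of all genes include dim genes, and none was taken over genes as bright as the members.

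Of the marker lists, macrophage markers were high in tumoral 1, 4 and 7 and peritumoral 3 and 6. Dendritic cell, lung epithelial and lymphocyte markers were low there. The mean deviation of 10 macrophage markers was 0.40, 0.56 and 0.25 in tumoral 1, 4 and 7 and 0.34 and 0.45 in peritumoral 3 and 6. For 4 of the 10, the complement genes C1qa, C1qb and C1qc and the lipid receptor gene Trem2, those 5 arrays were the highest. The mean deviation of 10 dendritic cell markers was -0.48, -0.63 and -0.26 in tumoral 1, 4 and 7 and -0.58 and -0.83 in peritumoral 3 and 6. For 5 of 8 lung epithelial markers these were the 5 lowest arrays, with mean deviations of the list of -0.65, -0.79 and -0.80 in tumoral 1, 4 and 7 and -0.74 and -0.76 in peritumoral 3 and 6. The mean deviation of 8 T, NK and B cell markers was -0.32, -0.53 and -0.52 in tumoral 1, 4 and 7 and -0.37 and -0.30 in peritumoral 3 and 6. That of 6 monocyte markers was 0.29, 0.12 and 0.35 in tumoral 1, 4 and 7 and 0.32 and 0.02 in peritumoral 3 and 6. The monocyte list was highest in peritumoral 5, at 0.61. Alveolar macrophage markers did not share the macrophage pattern. None of the 8 had these arrays highest and 2, Pparg and Cidec, had them lowest, with mean deviations of -0.13 and -0.40 in tumoral 4 and 7, near 0 in tumoral 1, and -0.56 and -0.41 in peritumoral 3 and 6. In bulk sorted cells a different mix of cells and a different amount of a transcript per cell cannot be told apart, and the part of the cell mix in the lysosomal values was not tested.

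**Figure D2:**
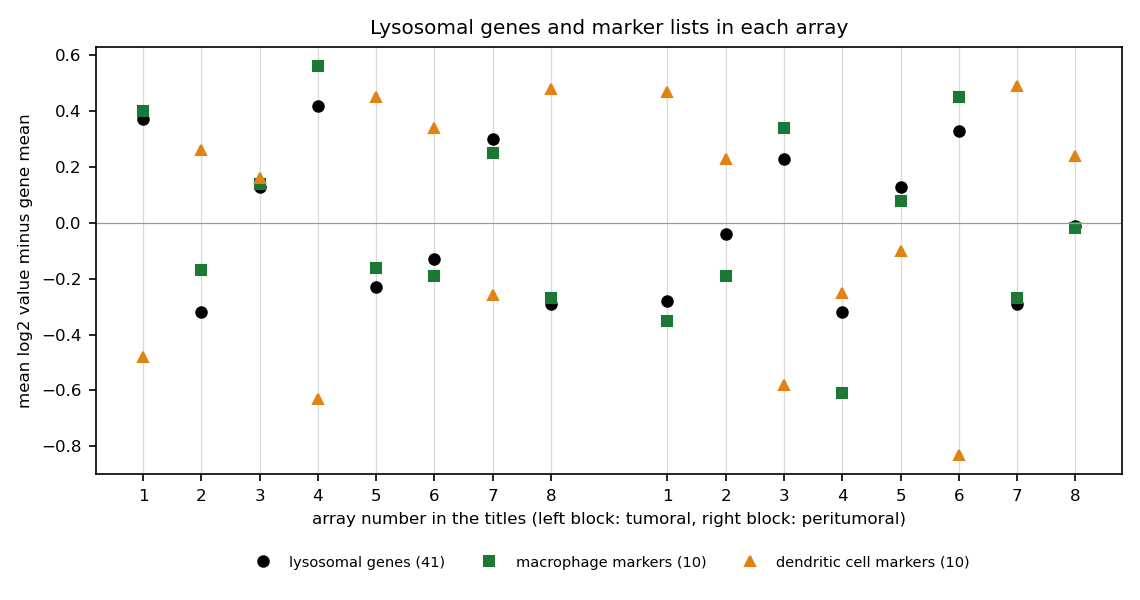
Mean log2 deviation (vertical axis) of the 41 lysosomal genes, 10 macrophage markers and 10 conventional dendritic cell markers in each array (tumoral 1 to 8 left, peritumoral 1 to 8 right). Circles and squares are high together in tumoral 1, 4 and 7 and peritumoral 3 and 6, where triangles are below 0.

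Promoter sequences of 5 members are shown so that the palindrome bound by the MiT family can be looked for in them. They are RefSeq sequences on the GRCm38.p6 build, from 250 bases before to 50 bases after the start site, written 5′ to 3′ on the strand of the gene. Capitals mark TCACGTGA, or CACGTG where the longer form is missing. Ctsd, Atp6v1a and Mcoln1 hold the longer form, Ctsl holds the core alone and Gusb holds neither.
Ctsd promoter, chr7:142387778-142388077, minus strand: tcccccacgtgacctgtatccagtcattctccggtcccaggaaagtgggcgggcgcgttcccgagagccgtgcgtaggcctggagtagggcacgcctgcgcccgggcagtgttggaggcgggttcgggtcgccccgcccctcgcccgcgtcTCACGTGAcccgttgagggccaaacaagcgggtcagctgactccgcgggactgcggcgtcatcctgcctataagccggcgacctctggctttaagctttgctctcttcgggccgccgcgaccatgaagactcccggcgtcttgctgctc
Atp6v1a promoter, chr16:44139210-44139509, minus strand: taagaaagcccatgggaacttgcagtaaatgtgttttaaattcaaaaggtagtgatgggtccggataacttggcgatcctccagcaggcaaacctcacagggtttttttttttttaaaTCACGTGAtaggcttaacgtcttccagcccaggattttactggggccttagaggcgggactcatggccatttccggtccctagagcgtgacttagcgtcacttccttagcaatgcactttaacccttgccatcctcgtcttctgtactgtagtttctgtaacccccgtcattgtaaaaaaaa
Mcoln1 promoter, chr8:3500269-3500568, plus strand: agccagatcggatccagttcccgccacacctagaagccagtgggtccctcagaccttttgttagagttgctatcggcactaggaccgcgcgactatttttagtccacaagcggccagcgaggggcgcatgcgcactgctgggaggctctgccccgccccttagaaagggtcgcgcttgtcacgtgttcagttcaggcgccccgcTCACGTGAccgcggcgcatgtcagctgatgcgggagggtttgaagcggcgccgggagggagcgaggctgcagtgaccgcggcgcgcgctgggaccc
Ctsl promoter, chr13:64370471-64370770, minus strand: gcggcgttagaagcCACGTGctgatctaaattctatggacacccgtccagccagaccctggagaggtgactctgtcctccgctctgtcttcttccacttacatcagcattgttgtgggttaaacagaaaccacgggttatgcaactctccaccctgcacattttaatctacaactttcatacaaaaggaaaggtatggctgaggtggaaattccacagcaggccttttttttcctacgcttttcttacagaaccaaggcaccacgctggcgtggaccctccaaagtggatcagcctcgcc
Gusb promoter, chr5:130003000-130003299, minus strand: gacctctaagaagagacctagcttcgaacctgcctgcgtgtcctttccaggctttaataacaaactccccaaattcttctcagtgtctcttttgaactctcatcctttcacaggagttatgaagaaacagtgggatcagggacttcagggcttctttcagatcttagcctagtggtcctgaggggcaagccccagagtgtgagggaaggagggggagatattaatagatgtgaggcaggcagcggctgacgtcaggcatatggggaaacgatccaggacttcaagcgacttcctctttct
Both motifs read the same on either strand, and each TCACGTGA contains a CACGTG. Of the 41 members 33 matched the promoter table, with 41 promoters. TCACGTGA occurred in 14.6% of these promoters, those of Atp6v0d1, Atp6v1a, Ctsa, Ctsd, Gla and Mcoln1, and in 0.974% of all 32851 promoters. CACGTG occurred in 26.8% of the members' promoters and in 7.15% of all. Among 79 promoters of 69 other lysosomal genes, TCACGTGA occurred in 7.59% and CACGTG in 20.3%. Values of holders ranged over 1.92 for Ctsd and 0.51 for Ctsa across the arrays, and those of Gusb, with neither motif in this window, over 1.47. A match in these letters is a description and not a site. The palindrome is known from promoters of many lysosomal genes, so its share among the members says nothing about these arrays. Its part in the values was not tested.

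Between the labels no lysosomal gene passed the test. limma, adjusted over all 19938 genes, called 0 of 41 members at 0.05 and 0.0% of all genes, and the smallest adjusted p among the members was 0.314. The rank-sum test also called 0 members. At an unadjusted p under 0.05 there were 3 members, Hexa, Atp6v1h and Scarb2, all higher in tumoral arrays, where 5.6% of all genes were higher at that level and 5.9% lower. No member lay lower at that level. The values of the labels overlapped for all 41 members, and 0.0853% of all genes did not overlap. Without peritumoral 7 the test called 0 members and 0.642% of all genes, without peritumoral 8 it called 0 members and 0.1% of all genes, and without peritumoral 4 and 7 it called 0 members and 0.441%. Tumoral means were above peritumoral means for 30 of 41 members, among them Man2b1 with nearly equal means, against 41.7% of all genes, with a median difference of 0.07 over the members and -0.02 over all genes. Without peritumoral 4 and 7 the median over the members was -0.003, on the other side of 0. With 1 array left out it lay between 0.03 (without tumoral 4 or peritumoral 4) and 0.13 (without tumoral 2). The median range of a member over the 16 arrays was 0.94, against 0.65 for all genes. Dim genes were not filtered out of the latter, and no median was taken over genes as bright as the members.

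**Figure D3:**
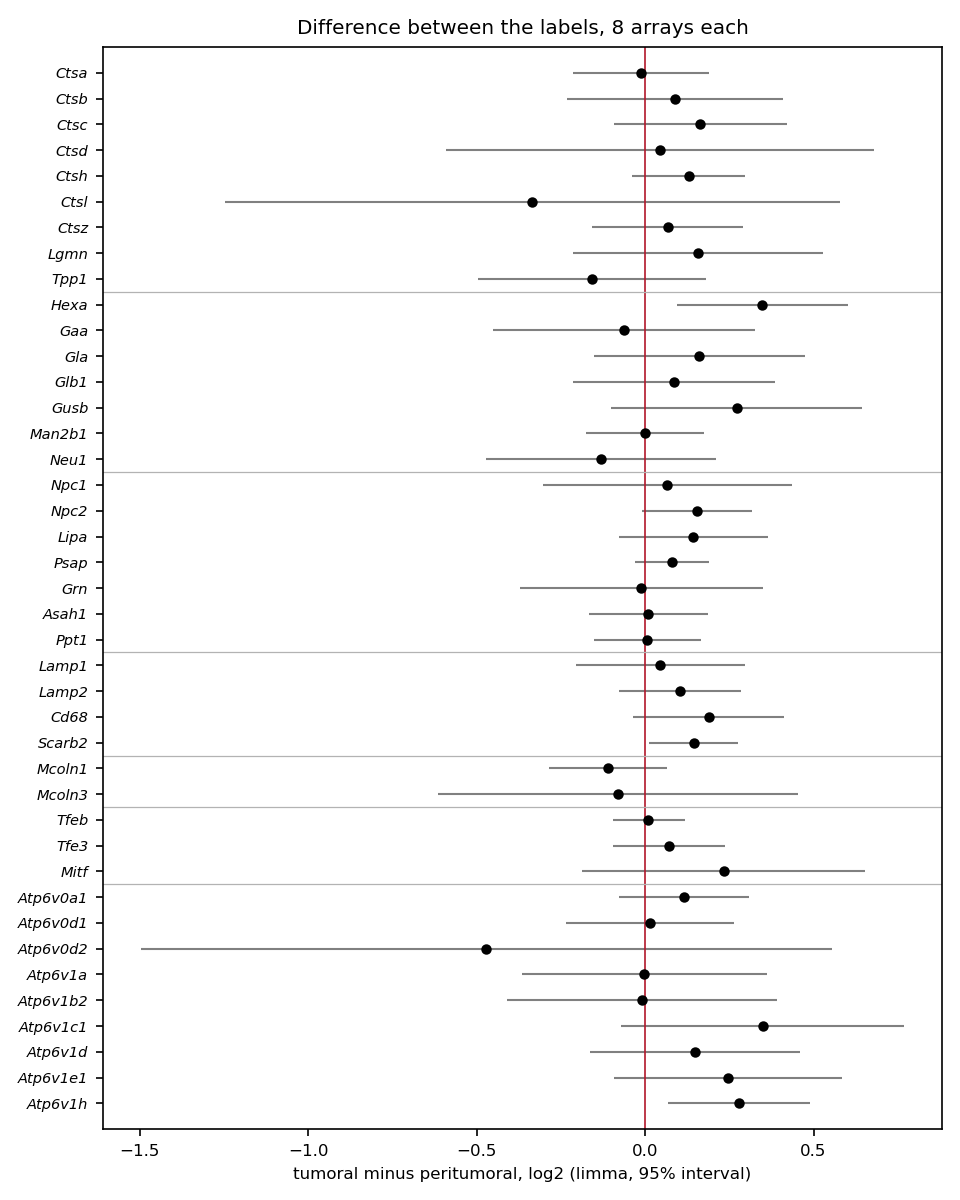
Difference between tumoral and peritumoral arrays in log2 units for each member, with the 95% interval of limma (8 arrays each, genes by role). Intervals for Hexa, Scarb2 and Atp6v1h leave out 0 before adjustment over all genes, and those for Atp6v0d2 and Ctsl are the widest.

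Among the lysosomal proteases 0 of 9 passed the test, 6 had a positive difference and 3 a negative one. Ctsl, which encodes the endopeptidase cathepsin L, had the widest spread of the group. It measured 11.22, 9.16, 10.35, 11.41, 9.17, 9.74, 11.22 and 9.24 in tumoral 1 to 8. The values in peritumoral 1 to 8 were 9.50, 10.62, 11.69, 10.34, 11.21, 11.57, 9.10 and 10.16. Both labels held arrays near the bottom and near the top of a range of 2.59, and they overlapped throughout. The means were 10.19 ± 0.99 in tumoral and 10.52 ± 0.94 in peritumoral arrays (SD, n = 8 each), with a difference whose 95% interval ran from -1.25 to 0.58 (limma, adjusted p = 0.798). The difference of -0.33 was between -0.54 (without peritumoral 7) and -0.17 (without peritumoral 3) when 1 array was left out. It also moved by over 1.5 times without peritumoral 6 (-0.18) and without tumoral 2, 4, 5 or 8 (-0.19, -0.51, -0.19 and -0.20), and was -0.60 without peritumoral 4 and 7.

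Ctsd, the gene of the aspartic protease cathepsin D, lay at 12.72, 12.60 and 12.44 in tumoral 1, 4 and 7 and at 11.21, 10.93 and 10.99 in tumoral 2, 5 and 8. In peritumoral arrays it was highest in peritumoral 6 at 12.45 and lowest in peritumoral 1 at 10.80. Both labels thus held low and high arrays, and the means differed by 0.04 (limma, adjusted p = 0.973). Lgmn encodes legumain, a protease that cuts after asparagine and processes cathepsins. Its lowest, median and highest values were 11.65, 11.99 and 12.63 in tumoral arrays and 11.22, 11.99 and 12.40 in peritumoral arrays. Ctsb, for cathepsin B, spanned 12.01 to 12.84 in tumoral and 11.78 to 12.72 in peritumoral arrays.

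Ctsc encodes the dipeptidyl peptidase that activates granule serine proteases. Its lowest, median and highest values were 12.26, 12.45 and 12.93 in tumoral and 11.95, 12.39 and 12.74 in peritumoral arrays, with a difference of 0.16 (limma, adjusted p = 0.622). It was 0.10 without peritumoral 4, 0.11 without tumoral 4 and 0.06 without peritumoral 4 and 7. The aminopeptidase gene Ctsh varied little among tumoral arrays. It lay between 11.29 and 11.42 in all tumoral arrays and between 10.75 and 11.45 in peritumoral arrays, with its lowest value in peritumoral 4, and its difference was 0.13 (limma, adjusted p = 0.542). Without peritumoral 4 that difference was 0.06. Ctsa, a carboxypeptidase that also shields neuraminidase and β-galactosidase, ranged over 0.51, and Ctsz, a carboxypeptidase, over 0.82. Tpp1, the tripeptidyl peptidase lost in a neuronal storage disease of children, had a range of 1.09 and a difference of -0.16.

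Of the glycosidases 0 of 7 passed the test, and Hexa had the smallest p of all members. Hexa encodes the α-subunit of β-hexosaminidase, which trims gangliosides. It measured 11.66, 11.13, 11.45, 11.69, 11.25, 11.22, 11.62 and 11.20 in tumoral 1 to 8. It measured, in peritumoral 1 to 8, 11.02, 10.97, 11.14, 10.45, 11.03, 11.33, 11.20 and 11.31. The 4 highest arrays were all tumoral, but peritumoral 6 and 8 lay above the other 4 tumoral arrays. The means were 11.41 ± 0.23 in tumoral and 11.06 ± 0.28 in peritumoral arrays, a difference of 0.35 with a 95% interval from 0.09 to 0.60 before adjustment (limma, adjusted p = 0.314). When single arrays were left out the difference stayed between 0.26 and 0.39.

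Gusb, the β-glucuronidase gene, differed by 0.27 (limma, adjusted p = 0.564). Leaving out peritumoral 4 gave 0.17, and leaving out peritumoral 7 as well gave 0.12. Its lowest, median and highest values were 9.64, 9.99 and 10.56 in tumoral arrays and 9.09, 9.86 and 10.37 in peritumoral arrays. Gla, for α-galactosidase A, and Glb1, for β-galactosidase, differed by 0.16 and 0.09. Gaa, which breaks down glycogen, and the sialidase gene Neu1 differed by -0.06 and -0.13. Man2b1, a mannosidase gene, had the same mean of 11.69 in both labels to 2 decimals, and its 95% interval ran from -0.17 to 0.17.

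Among 7 genes of lipid handling 0 passed the test, and their median range over the arrays was 0.67, against 1.06 for the proteases. Npc2, the soluble carrier that hands cholesterol to Npc1, had lowest, median and highest values of 10.91, 11.15 and 11.34 in tumoral arrays. In peritumoral arrays they were 10.67, 11.06 and 11.14. In 4 tumoral arrays it was higher than in every peritumoral array, and the difference was 0.15 (limma, adjusted p = 0.465). Psap, the precursor of the saposins that present sphingolipids to their hydrolases, lay between 13.10 and 13.31 in tumoral and between 12.96 and 13.21 in peritumoral arrays. Its difference was 0.08, and 0.05 without peritumoral 4 and 7. Npc1, the membrane cholesterol transporter, had the largest range of the group at 1.08. It lay between 10.34 and 11.39 in tumoral and between 10.31 and 11.32 in peritumoral arrays, and its difference of 0.07 turned to -0.07 without peritumoral 4 and 7. With 1 array left out it lay between -0.02 (without tumoral 4) and 0.15 (without peritumoral 6), and most single arrays moved it by over 1.5 times when left out.

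Lipa, the acid lipase gene, was at 11.82, 11.89 and 11.56 in tumoral 1, 4 and 7 and no higher than 11.44 in any other array. Peritumoral 3 and 6 measured 11.37 and 11.36, so that these arrays, high for most members, were not high for Lipa. The progranulin gene Grn had a range of 0.94 and a difference of -0.01. The ceramidase gene Asah1 and the thioesterase gene Ppt1 both differed by 0.01.

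All 4 membrane glycoprotein genes had positive differences and 0 passed the test. Scarb2 encodes LIMP-2, the receptor that carries β-glucocerebrosidase to lysosomes. It lay between 9.52 and 9.89 in tumoral and between 9.42 and 9.64 in peritumoral arrays, a difference of 0.14 (limma, adjusted p = 0.395). Its lowest arrays were peritumoral 2 and 3, both at 9.42, although peritumoral 3 was high for most members. Cd68, a glycoprotein of phagocyte lysosomes often used as a macrophage marker, had lowest, median and highest values of 12.19, 12.38 and 12.67 in tumoral arrays and 11.77, 12.26 and 12.54 in peritumoral arrays. Its difference of 0.19 did not pass (limma, adjusted p = 0.507), and was 0.12 without peritumoral 4 and 0.11 without peritumoral 4 and 7. Lamp1 and Lamp2, the main glycoproteins of the lysosomal membrane, differed by 0.04 and 0.10.

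Both cation channels had negative differences and neither passed. Mcoln1, the calcium and iron channel whose loss causes mucolipidosis type IV, lay between 9.67 and 10.15 in tumoral and between 9.81 and 10.43 in peritumoral arrays (difference -0.11, limma adjusted p = 0.624). The difference was -0.06 without peritumoral 6 and -0.07 without tumoral 2. Mcoln3, a related channel of endosomes, lay between 6.56 and 8.05 in tumoral and between 6.67 and 8.35 in peritumoral arrays. Its highest value was in peritumoral 4, the array with the highest endothelial, epithelial, lymphocyte, fibroblast, neutrophil and alveolar macrophage marker deviations. The part of such cells in this value was not tested. The difference of -0.08 for Mcoln3 turned to 0.06 without peritumoral 4, 0.02 without tumoral 5 and 0.03 without tumoral 8. It was -0.19 without tumoral 1. Most single arrays moved it by over 1.5 times when left out.

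Of the MiT family regulators, only Mitf had tumoral 1, 4 and 7 and peritumoral 3 and 6 as its 5 highest arrays, and 0 of 3 passed the test. Mitf measured 9.78, 9.03, 9.46, 10.01, 9.19, 9.20, 9.79 and 9.09 in tumoral 1 to 8. Peritumoral 1 to 8 gave 8.94, 9.15, 9.67, 8.23, 9.43, 9.82, 9.08 and 9.37. Its range was 1.78, with the lowest value in peritumoral 4. The Tfeb range was 0.24, the smallest of all 41 members, with values between 8.35 and 8.56 in tumoral and between 8.33 and 8.56 in peritumoral arrays. Tfe3 lay between 9.56 and 9.77 in tumoral and between 9.20 and 9.88 in peritumoral arrays. TFEB and TFE3 are known to be controlled mainly by where the protein sits in the cell, which an RNA measurement does not show. The differences were 0.23 for Mitf, 0.07 for Tfe3 and 0.01 for Tfeb (limma, adjusted p = 0.677, 0.754 and 0.960). Without peritumoral 4 the difference was 0.09 for Mitf and 0.01 for Tfe3. That of Mitf was 0.15 without tumoral 4, and that of Tfe3 0.11 without peritumoral 6.

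The proton pump held the member with the widest spread and 0 of 9 subunits passed the test. Atp6v0d2 encodes the d2 form of a V0 subunit, known from osteoclasts and some macrophages, and Atp6v0d1 the form found in most cells. Atp6v0d2 measured 11.00, 8.97, 10.29, 10.69, 8.31, 9.53, 10.45 and 8.01 in tumoral 1 to 8. The values in peritumoral 1 to 8 were 9.15, 10.14, 11.07, 10.80, 10.51, 11.33, 8.27 and 9.74. Values near 8 and near 11 occurred in both labels. Peritumoral 4, low for most members and highest for markers of several other cell types, was high for this one. The part of such cells in that value was not tested. The means were 9.66 ± 1.13 in tumoral and 10.13 ± 1.04 in peritumoral arrays, with a difference of -0.47 whose 95% interval ran from -1.50 to 0.55 (limma, adjusted p = 0.733). It was -0.74 without peritumoral 7, -0.30 without peritumoral 6, -0.28 without tumoral 5 and -0.24 without tumoral 8. Atp6v0d1, by contrast, had a range of 0.76 and a difference of 0.01.

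Atp6v1c1 encodes the C subunit that joins V1 to V0. It measured 10.44, 9.43, 10.15, 10.55, 9.69, 9.87, 10.51 and 9.55 in tumoral 1 to 8. It measured, in peritumoral 1 to 8, 9.17, 9.59, 10.03, 8.96, 9.94, 10.10, 9.60 and 10.02. The 4 highest arrays were tumoral and the 2 lowest peritumoral, with overlap between. Its difference was 0.35 (limma, adjusted p = 0.512), and 0.22 without peritumoral 4 and 7. Atp6v1h, the H subunit that governs ATP splitting in the free V1 part, had lowest, median and highest values of 9.06, 9.33 and 9.60 in tumoral arrays and 8.58, 9.17 and 9.23 in peritumoral arrays. In 6 tumoral arrays it was higher than in every peritumoral array. Its difference was 0.28 with a 95% interval from 0.07 to 0.49 before adjustment (limma, adjusted p = 0.323).

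Atp6v1a and Atp6v1b2 encode the A and B subunits that form the ATP-binding head. Their differences were -0.002 and -0.01, and they ranged over 1.07 and 1.10. Their 95% intervals ran from -0.37 to 0.36 and from -0.41 to 0.39. The stalk subunits Atp6v1e1 and Atp6v1d differed by 0.24 and 0.15, and Atp6v0a1, a form of the a subunit that lines the path of the protons, by 0.12.

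**Figure D4:**
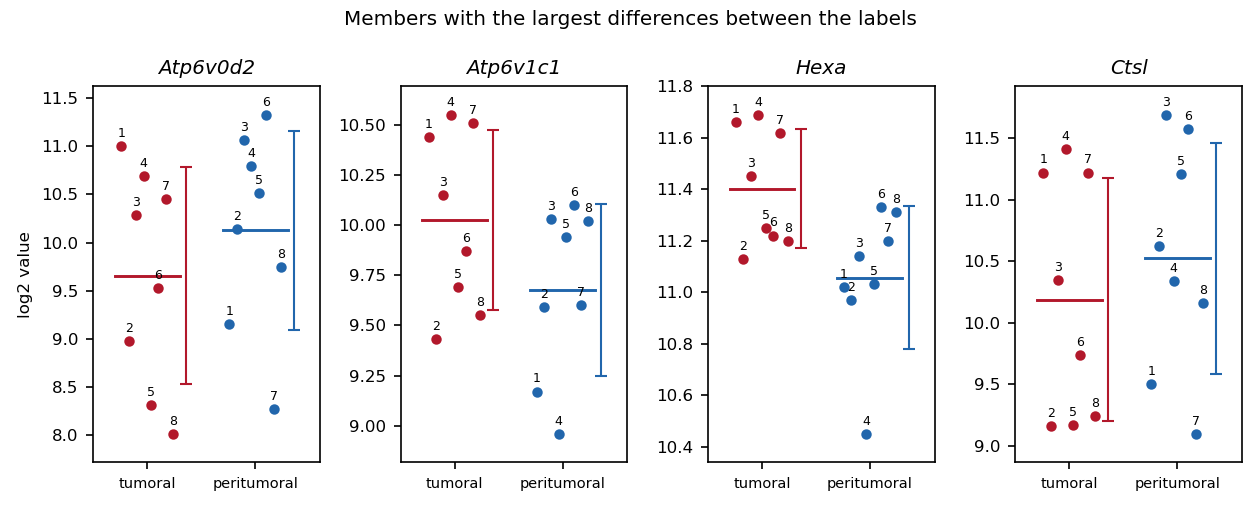
Log2 values of the 4 members with the largest differences between the labels, each array marked by its number, with the mean (line) and SD (bar) of 8 tumoral and 8 peritumoral arrays. In every panel arrays 1, 4 and 7 are the highest tumoral ones, and the labels overlap.

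Adding a factor shared by the arrays to the fit changed which members passed. The first principal component of the deviations that remain within the labels over all genes was added to the fit as a covariate, a step chosen after the data were seen. Its scores were -0.25, -0.35 and -0.28 in tumoral 1, 4 and 7 and -0.38 and -0.33 in peritumoral 3 and 6, the 5 lowest of the 16. The highest scores were 0.43 in peritumoral 4, the farthest from 0 of all arrays, and 0.35 in tumoral 2. The covariate thus also took up the deviations of peritumoral 4. With this covariate limma called 5 of 41 members, all higher in tumoral arrays, and 1.63% of all genes (1.32% higher). They were Gusb, Hexa and Atp6v1h (adjusted p = 0.0447 each) and Atp6v1c1 and Ctsc (adjusted p = 0.0482 each). Their differences of 0.27, 0.35, 0.28, 0.35 and 0.16 were the same as before by construction. The component was built from deviations around the label means, so it cannot change a difference, only the spread that remains. The members themselves are part of that spread. At an unadjusted p under 0.05 there were 16 members higher, against 10.1% of all genes, and 1 member, Tpp1, lower. The covariate comes from the same values that are tested and its own error is not counted, so these p-values leave that error out.

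Of 92 further lysosomal genes listed for comparison 81 had a named probe set, and 0 passed the test between the labels. There were 39 with a positive and 42 with a negative difference, with a median of -0.008. At an unadjusted p under 0.05, 3 were higher and 3 lower, against 5.6% and 5.9% of all genes. Atp6ap2, an accessory subunit of the pump, lay between 10.50 and 10.98 in tumoral and between 9.82 and 10.58 in peritumoral arrays, a difference of 0.40 (limma, adjusted p = 0.246). Cd63, a tetraspanin of late endosomes, differed by 0.75 (adjusted p = 0.340). Ctsw, a cathepsin of cytotoxic lymphocytes, differed by -0.45 (adjusted p = 0.393). Its highest value of 7.99 was in peritumoral 4, where the deviation of 8 lymphocyte markers was 2.12. Stfa3, a cathepsin inhibitor gene, differed by -0.18 (adjusted p = 0.405). The arrays tumoral 1, 4 and 7 and peritumoral 3 and 6 were the 5 highest for 23 of the 81 (28.4%), against 8.37% of all genes. They were the 5 lowest for 1, Cst3, the gene of the secreted inhibitor cystatin C, against 3.6% of all genes. By list the 23 were 10 of 27 hydrolases, 3 of 19 membrane and sorting genes, 4 of 14 pump subunits, 1 of 6 cathepsin inhibitors and 5 of 15 genes of the nutrient control of TFEB.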

How the data were processed

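Per the labels' protocols, total RNA of sorted cells was converted and amplified by the Ambion WT Expression method, then hybridised to an Affymetrix whole-transcript array, and the authors deposited values read here as log2 from their range. How the authors corrected background and normalized, and the base of the log, is not given in the sources used here; probe detection calls were not used. Of 28853 probe sets 21789 had 1 gene symbol in the platform annotation, and the brightest probe set of each gene over all arrays was kept (of the members this applied to Mitf), which left 19938 genes. The 2 labels were tested by limma (version 3.58.1, R version 4.3.3) on 8 arrays each, with 14 residual degrees of freedom and no filter. Benjamini-Hochberg adjustment was over all genes at 0.05. The procedure was tested on simulated data with noise drawn separately for each gene. Those data held no factor shared by the arrays, so they do not show how the test behaves with the shared factor seen here. The members and lists were chosen with earlier results of these data known. Named in detail were, in each role group, the 2 members with the smallest p and the one with the widest range, with any whose labels did not overlap, and the 4 largest differences get every array; others were added after their values were seen. The number of arrays limits the precision. Promoters came from RefSeq.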

Additional observations from a re-analysis of the deposited data

Results flagged for a closer look

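Of 82 groups of 8 arrays, 1 for each member and label, 1 held an array far from the others, where chance gives about 1 in 20. Hexa measured 10.45 in peritumoral 4, against 10.97 in the next lowest peritumoral array, a gap of 0.589 of the range of that label. Peritumoral 4 also had the highest endothelial, epithelial, lymphocyte, fibroblast, neutrophil and alveolar macrophage marker deviations, and their part in this value was not tested.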

How the results depend on the processing

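Under each of 25 other settings, the covariate below apart, 0 lysosomal genes passed the test. Over all genes the count was 0 in the main fit, 0 with the replicate block, between 0 and 128 when 1 array was left out (128 without peritumoral 7, 20 without peritumoral 8, 0 without any other) and 88 without peritumoral 4 and 7. Members at an unadjusted p under 0.05 numbered 3 in the main fit, against 11.5% of all genes in either direction. With 1 array left out they numbered between 2 and 5 (5 without peritumoral 6 or without tumoral 2). The share of all genes was not taken for those fits or for the replicate block. No gain or loss of members is read from these counts. The median difference of the members was 0.07, between 0.028 and 0.127 with 1 array left out, 0.035 after quantile normalization, 0.124 after centring on array medians and -0.003 without peritumoral 4 and 7. The first principal component of the residuals as a covariate, chosen after seeing the data, gave 324 genes (1.63% of all) and 5 members past the threshold. It gave 17 members at an unadjusted p under 0.05, 16 of them higher, against 10.1% of all genes higher. Among 17 members named in detail the direction held in all but 6 of 442 comparisons, but part of these could not have turned. The replicate block, the genes above the median level, the trended variances, the rank-sum test and the covariate leave each difference unchanged by construction. The mean of all probe sets can change only Mitf among the members. The size moved by over 1.5 times for several members when 1 array was left out, as given beside them. Npc1 turned to -0.018 without tumoral 4 and to -0.068 without peritumoral 4 and 7, with leave-one-out values from -0.018 to 0.149. Mcoln3 turned to 0.094 with array weights, 0.058 without peritumoral 4, 0.016 without tumoral 5 and 0.026 without tumoral 8, with leave-one-out values from -0.188 to 0.058. The cause was not tested. Without peritumoral 4 the 5 highest arrays were as described for 16 members, and 11 members had the complete order. Same-numbered arrays were not paired, because the labels name no animal. The correlation of deviations was above 0.1 in 3 of 8 pairs (range -0.563 to 0.286). Same-numbered arrays, such as those at places 1 and 9, are never a multiple of 3 places apart. The order by places therefore enters these correlations, and they cannot show whether equal numbers share an animal. The replicate block gave 0 called members and 3 at an unadjusted p under 0.05. Without detection calls it is not known which dim probe sets, such as that of Mcoln3, lie near background.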

Other observations

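Some lysosomal genes outside the 41 spread more widely over the arrays and are named here after their values were seen. Ctsk, the collagen-degrading cathepsin of osteoclasts, had a range of 4.08 and measured 9.36, 7.18, 8.59, 9.47, 7.19, 8.35, 9.60 and 6.81 in tumoral 1 to 8. Peritumoral 1 to 8 gave 7.33, 8.20, 10.70, 8.22, 9.39, 10.90, 7.01 and 8.41. Peritumoral 3 and 6 lay above every tumoral array, as they did for Acp5, the tartrate-resistant acid phosphatase gene, at 11.75 and 11.87 against at most 11.31 in tumoral arrays. For Gpnmb, a lysosomal glycoprotein gene of lipid-laden macrophages, tumoral 1 was highest at 12.10 and tumoral 5 lowest at 8.17, a range of 3.93 with a difference between the labels of -0.13 (limma, adjusted p = 0.966).

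Not every hydrolase followed the 41 genes. Arsb, the arylsulfatase B gene, was lowest in tumoral 1, 7 and 4, at 8.98, 9.21 and 9.12, and highest in peritumoral 1 at 10.80. Lipa was high in tumoral 1, 4 and 7 but not in peritumoral 3 and 6, and Atp6v0d2 was high in peritumoral 4, where Ctsb, Gusb and Mitf had their lowest values.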
